A study of Mus musculus with 15 samples.

Results

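Transcripts of the nuclear genes of oxidative phosphorylation were followed in mouse liver across birth and after loss of the miR-379/miR-410 microRNA cluster. Genes were chosen by name on the array (Nduf, Sdha to Sdhd, Uqcr, Cox4 to Cox8 and Atp5), which found 92 names, and 90 of them were detected (well above background on 3 or more arrays within some group), among 22620 genes tested in all. Complex I contributed 40 genes, complex II 6, complex III 8, complex IV 18 and complex V 17. The names also took in proteins that are not subunits. These are 6 assembly factors (4 of complex I and 2 of complex II), the supercomplex factor Cox7a2l, the associated Atp5s and Atp5sl, and Cox4nb. Atp5s and Atp5sl were counted with complex V by their array names. The current symbol of Cox4nb, Emc8, is that of a membrane protein complex of the endoplasmic reticulum. Both names that were not above background on any array, Cox7b2 and Cox8c, belong to testis isoforms of complex IV.

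Oxidative phosphorylation makes most of the ATP of a resting cell. Complex I (NADH dehydrogenase) and complex II (succinate dehydrogenase) feed electrons from the citric acid cycle and from fat into ubiquinone, complex III passes them to cytochrome c, complex IV hands them to oxygen, and complex V (ATP synthase) uses the resulting proton gradient. Most subunits are encoded in the nucleus and must be built, with dedicated assembly factors, around a small mitochondrially encoded core. The liver meets oxygen and a fat-rich milk diet at birth, and its mitochondria are known to mature in the hours around delivery.

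All animals were C57BL/6J mice. KO animals lacked the miR-379/miR-410 cluster on the chromosome inherited from the mother, and WT animals were littermates with the cluster intact. Fetuses were taken by caesarean section at embryonic day E19.5 (3 WT and 3 KO) and newborns after natural delivery at postnatal day 0 (P0; 4 WT and 5 KO), so age and mode of delivery cannot be told apart. Total liver RNA of each animal was labelled with Cy3 and hybridised to 1 single-colour Agilent array. Levels are log2 of the processed signal minus the 75th percentile of the same array, so 0 is that percentile, and levels of different genes are not compared. Differences were tested with limma. A gene passed where its p, adjusted by the Benjamini-Hochberg method across the whole table, was under 0.05. The p-values measure the spread between these animals.

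The transcript Mirg, which comes from the region of the deleted cluster, was lower in KO at both ages, by 3.48 at E19.5 and by 2.70 at P0 on the log2 scale (limma adjusted p = 0.00017 and 0.00012). All 6 hepatocyte markers examined were above background on every array. The 75th percentile of log2 signal ran from 8.44 to 9.05 over the E19.5 arrays and from 9.08 to 9.61 over the P0 arrays, with no overlap. WT P0 arrays 3 and 4 held more exocrine pancreas transcripts than the others. The median of the 7 tested pancreas markers was 0.94 and 2.76 there and from -2.60 to -0.04 on the other arrays, and all 8 markers on the list were above background on at least 1 array. The same 2 arrays had the lowest medians of the 6 erythroid markers, 6.46 and 6.17 against 6.87 to 7.38 elsewhere. Skeletal muscle markers were raised on WT E19.5 array 1, WT P0 arrays 1, 2 and 4, and KO P0 array 5, with medians of the 8 markers of -1.98, -1.20, -1.24, 0.38 and -0.42 against -4.78 to -3.36 on the other arrays. The median of the 5 tested adrenal cortex markers was 2.29 on WT P0 array 2 and 0.91 on KO P0 array 5, against -0.80 to 0.26 on the other arrays. In bulk tissue, fewer cells of a type and less RNA per cell cannot be told apart.

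Promoters are shown for 6 genes that the results turn on: Ndufaf4, Sdhaf1 and Atp5s, which rose at birth in both genotypes, Cox7a1 and Atp5e, which fell in both, and Uqcrc1, which was lower in KO newborns. Each stretch is the 200 bases before the gene's start in RefSeq's GRCm38.p6 table, written 5′ to 3′ on the gene's strand, with capitals marking a searched motif.

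Ndufaf4 (chr4:24897883-24898082, plus strand, NRF1 motif): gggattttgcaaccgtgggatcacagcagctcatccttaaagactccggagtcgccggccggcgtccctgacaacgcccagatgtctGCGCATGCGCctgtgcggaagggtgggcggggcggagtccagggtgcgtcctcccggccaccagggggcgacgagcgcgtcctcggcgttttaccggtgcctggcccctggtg

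Sdhaf1 (chr7:30322376-30322575, minus strand, ACGTG): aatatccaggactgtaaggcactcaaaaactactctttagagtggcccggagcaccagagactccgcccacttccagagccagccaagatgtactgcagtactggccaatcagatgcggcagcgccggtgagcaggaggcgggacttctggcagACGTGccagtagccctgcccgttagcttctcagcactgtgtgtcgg

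Atp5s (chr12:69724745-69724944, plus strand, current symbol Dmac2l, ACGTG): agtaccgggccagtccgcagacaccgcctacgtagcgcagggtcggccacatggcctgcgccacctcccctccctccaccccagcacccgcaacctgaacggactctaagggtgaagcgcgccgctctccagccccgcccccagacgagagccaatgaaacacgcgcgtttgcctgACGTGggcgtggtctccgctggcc

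Atp5e (chr2:174464102-174464301, minus strand, ETS motif on the opposite strand): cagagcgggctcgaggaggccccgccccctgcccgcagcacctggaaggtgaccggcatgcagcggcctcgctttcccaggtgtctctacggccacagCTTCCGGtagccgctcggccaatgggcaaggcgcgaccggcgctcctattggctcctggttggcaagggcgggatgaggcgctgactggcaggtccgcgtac

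Cox7a1 (chr7:30183971-30184170, plus strand, none of the motifs): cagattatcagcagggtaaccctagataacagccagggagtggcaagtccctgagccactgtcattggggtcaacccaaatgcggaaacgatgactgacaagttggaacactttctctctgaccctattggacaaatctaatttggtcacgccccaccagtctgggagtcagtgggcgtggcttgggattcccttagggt

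Uqcrc1 (chr9:108936448-108936647, plus strand, none of the motifs): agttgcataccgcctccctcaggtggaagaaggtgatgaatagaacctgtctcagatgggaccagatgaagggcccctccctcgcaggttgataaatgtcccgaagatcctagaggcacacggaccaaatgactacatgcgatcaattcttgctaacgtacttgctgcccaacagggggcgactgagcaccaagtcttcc

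The motifs were searched on both strands of the 250 bases before the start for the 75 members that have a promoter entry, beside 27025 promoters of all genes. The site of nuclear respiratory factor NRF1 (GCGCA, any base, then GCGC) was found in 13 of 75 member promoters (17.3%) and in 3.86% of all promoters. CCGGAAG, the core bound by ETS factors such as GABPA, was found in 17.3% and 7.05%. ATGGCGG, bound by YY1, was found in 5.33% and 2.19%, AAGGTCA, the core element of estrogen-related receptors, in 6.67% and 4.05%, and ACGTG, the core of hypoxia response elements, in 24.0% and 16.6%. The median difference across birth was -0.05 in WT and -0.13 in KO for the 13 members with the NRF1 motif, and 0.05 in WT and -0.13 in KO for the 62 without it. For the 18 members with ACGTG it was 0.14 in WT and -0.02 in KO, and for the 57 without it 0.00 and -0.15. A match describes letters only, and where none was found these letters are simply not in this window.

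Across birth, the members with the largest called changes were not catalytic subunits. The largest rises that passed in both genotypes were those of the assembly factors Ndufaf4 and Sdhaf1 and of the associated Atp5s, and a pair of complex IV isoforms fell (Cox7a1 in both genotypes, Ndufa4l2 in WT). Of the 6 assembly factors named Ndufaf or Sdhaf, 2 rose in each genotype and Ndufaf3 fell in KO, while Ndufaf1, Ndufaf2 and Sdhaf2 passed in neither. In WT livers 7 of 90 members rose and 7 fell from E19.5 to P0, where 8.36% of all tested genes rose and 10.6% fell (19.0% in either direction). In KO livers 4 rose and 13 fell, where 8.57% of all genes rose and 11.4% fell (20.0% in either direction). At an unadjusted p under 0.05 stood 25 members in WT and 28 in KO, where 33.9% and 34.4% of all genes did. Fetal and newborn arrays did not overlap for 25 members in WT and 29 in KO, where 30.5% and 31.4% of all genes did not. The members' shares in either direction thus lay near or below those of all genes. The median difference of the 90 members was 0.04 in WT and -0.12 in KO, beside -0.02 and -0.04 for all tested genes. The WT values leaned on WT P0 arrays 3 and 4, the arrays with pancreas transcripts. The WT median of the members was -0.04 without array 4 and -0.09 without both, when 3 members rose and 6 fell, where 10.1% of all genes passed. Of the WT calls, those of Ndufs1, Ndufb5, Sdhaf1, Atp5sl, Ndufa13, Ndufv3, Cox6a1 and Ndufa4l2 were then lost. The split of higher and lower calls depended on the scaling: it was 6 and 2 in WT and 3 and 1 in KO when arrays were scaled to their median, and 19 and 5 in WT after another background correction (normexp) with the same percentile. Of all genes, 13.9% in WT and 13.5% in KO passed under median scaling, and 44.9% in WT after normexp. Passing in both genotypes were Ndufaf4, Sdhaf1, Atp5s and Ndufa10, which rose, and Atp5e, Atp5j2, Ndufa13, Ndufv3 and Cox7a1, which fell. The probes of Ndufv3 disagreed: the one used gave -0.29 in WT and -0.40 in KO, and the other two gave 0.24 and -0.39 in WT and 0.03 and -0.01 in KO. The changes in the 2 genotypes, which share no arrays, followed each other across the 90 members (Pearson r = 0.89 and Spearman rho = 0.83 over 90 genes, a description, since genes share arrays within each genotype), and 65 of 90 had the same sign.

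**Figure D1:**
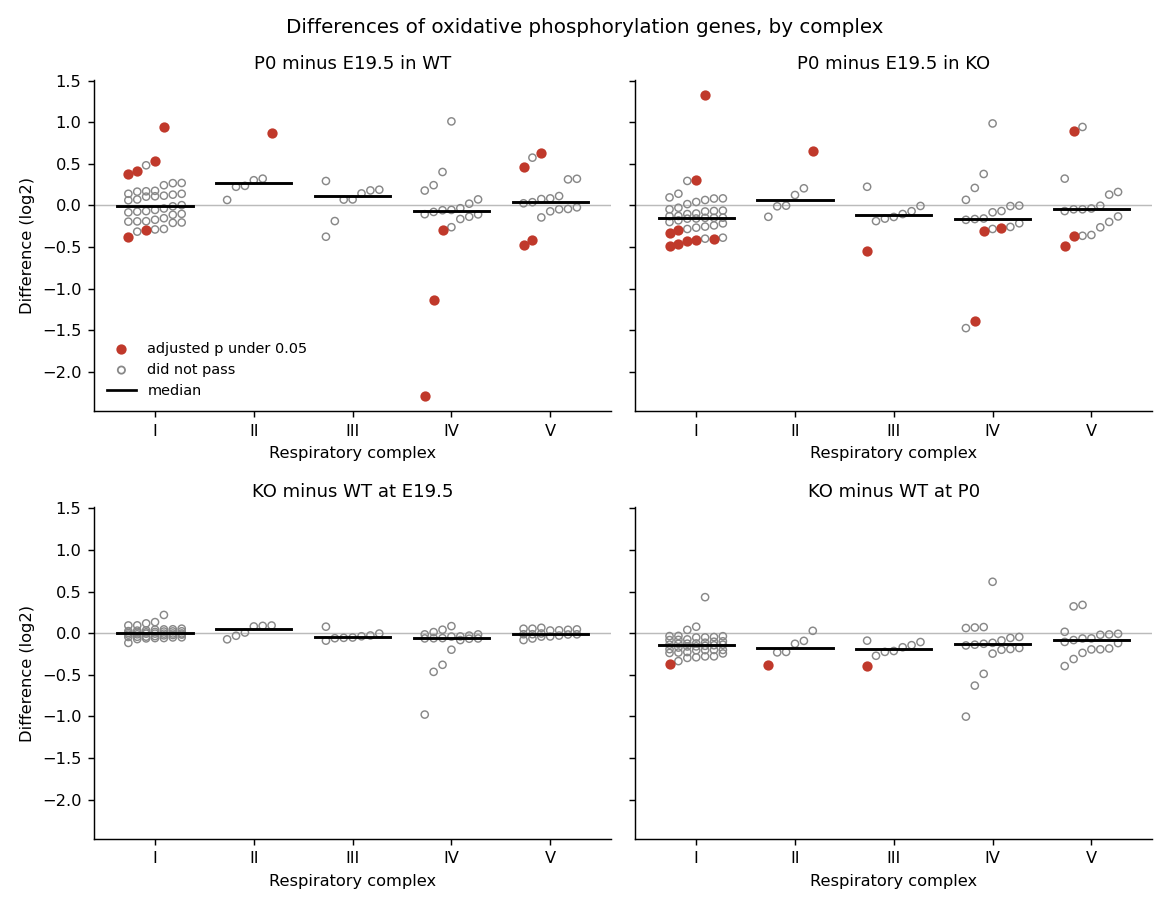
Log2 difference of each member (circles) by respiratory complex for 4 comparisons, with the median of each complex as a bar and filled circles for members with a limma adjusted p under 0.05. In both birth comparisons most members lie within 0.5 of 0 and a few genes of complexes I, II, IV and V lie far outside, while the KO minus WT medians lie near 0 at E19.5 and below 0 at P0.

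**Figure D2:**
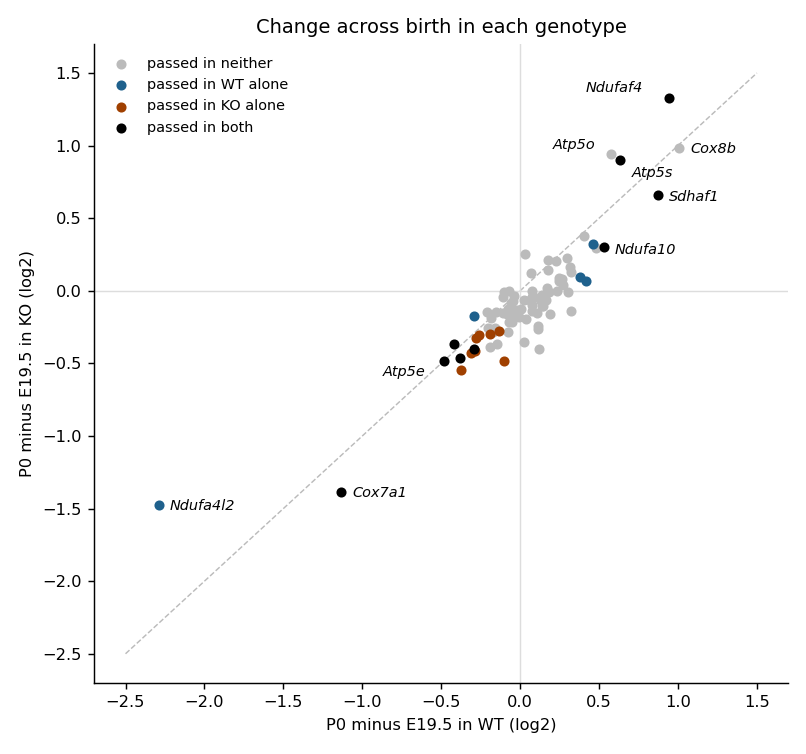
Change from E19.5 to P0 (log2) in WT on the x axis and in KO on the y axis for the 90 members, coloured by the genotype in which the gene passed the limma test; the dashed line marks equal change. Ndufaf4 and Cox7a1 lie at the far ends among the genes that passed in both genotypes.

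Complex I takes electrons from NADH through a core of catalytic subunits that carry flavin and iron-sulfur clusters. Its 7 nuclear core subunits had a median difference across birth of 0.17 in WT, with all 7 above 0, and of 0.02 in KO, with 4 above 0. Without WT P0 arrays 3 and 4 it was 0.08 in WT, also with 4 above 0. Ndufs1, the largest core subunit and a carrier of iron-sulfur clusters, passed in WT. Its levels were 4.72, 4.76 and 4.82 in WT at E19.5 and 5.03, 5.16, 5.18 and 5.37 in WT at P0. The groups did not overlap, and the rise was 0.42 ± 0.10 (SE; limma adjusted p = 0.013). The call was lost under 7 of 23 alternatives, among them slide as a block, the fit without WT P0 arrays 3 and 4 (0.33), the fit without WT E19.5 array 1, and array brightness as a covariate (0.02). In KO the levels were 4.67, 4.70 and 4.87 at E19.5 and 4.96, 4.90, 4.72, 4.78 and 4.70 at P0, which overlapped, with a difference of 0.07 ± 0.10 (adjusted p = 0.67). Ndufv1, which binds NADH and flavin, and Ndufs7, whose cluster lies next to the ubiquinone site, did not pass, with differences of 0.17 ± 0.09 and 0.14 ± 0.14 in WT and of 0.02 ± 0.08 and -0.10 ± 0.14 in KO.

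The 29 accessory subunits of complex I, which brace the core, had a median difference of -0.07 in WT and -0.16 in KO. In WT 2 rose (Ndufa10 and Ndufb5) and 2 fell (Ndufa13 and Ndufv3), and in KO 1 rose (Ndufa10) and 6 fell. Of all genes 8.36% rose and 10.6% fell in WT, and 8.57% rose and 11.4% fell in KO. The Ndufb5 rise was 0.38, and its other probes gave 0.40 and -0.47. Ndufa10 stood at 3.25, 3.22 and 3.29 in WT at E19.5 and at 3.57, 3.75, 3.88 and 3.95 at P0, without overlap, a rise of 0.53 ± 0.10 (limma adjusted p = 0.0033). In KO it went from 3.20, 3.14 and 3.27 to between 3.40 and 3.62, a rise of 0.30 ± 0.10 (adjusted p = 0.041). Ndufa13, also known as GRIM-19, fell by 0.38 in WT and by 0.46 in KO (adjusted p = 0.022 and 0.0067). Its levels were 7.14 to 7.32 in all E19.5 fetuses and 6.62 to 7.01 in all newborns. Ndufa3, a small membrane-arm subunit, fell by 0.43 in KO (adjusted p = 0.01), but its probes disagreed, since another gave -0.42 and the remaining 1 gave 0.35.

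The largest called rise of all members was that of Ndufaf4. It encodes a factor that binds Ndufaf3 and helps to put together the arm of complex I that faces ubiquinone. Its probe lies at chr4:24829194-24829253 on the mm9 build. Its levels were 2.19, 2.26 and 2.14 in WT and 2.28, 2.26 and 2.20 in KO at E19.5. At P0 they were 2.99, 2.83, 3.22 and 3.53 in WT and 3.32, 3.97, 3.24, 3.78 and 3.57 in KO. All 9 newborns were higher than all 6 fetuses. The rise was 0.94 ± 0.18 in WT and 1.33 ± 0.17 in KO (limma adjusted p = 0.0036 and 0.00024), or 1.92-fold and 2.51-fold. Its other probe gave 0.83 and 0.98. The KO call held under all 24 alternatives, while the WT call was lost within slide 2 (0.71, adjusted p = 0.11) and with array brightness as a covariate (0.11, adjusted p = 0.96). Ndufaf3 went the other way in KO, from 1.06 or more on all 3 fetal arrays to 0.86, 0.83, 0.70, 0.42 and 0.22, a fall of 0.48 (adjusted p = 0.024), which was not called with the replicate number as a block (-0.34, adjusted p = 0.084). In WT its difference was -0.10 ± 0.14.

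Complex II is the enzyme of the citric acid cycle that sits in the respiratory chain, with the catalytic pair Sdha and Sdhb and the membrane anchors Sdhc and Sdhd. In WT the 4 subunits differed between the ages by 0.22 to 0.32, all above 0, and none passed. Without WT P0 arrays 3 and 4 these differences were 0.01 to 0.25. In KO the differences were -0.14 to 0.21 and none passed. Sdhaf1, the factor that guards the iron-sulfur clusters of Sdhb during assembly, passed in both genotypes. Its probe lies at chr7:31106594-31106653 (mm9). Its levels were 2.08, 2.04 and 2.03 in WT and 2.22, 2.00 and 2.20 in KO at E19.5, and 2.90, 2.60, 3.08 and 3.12 in WT and 2.83, 3.10, 2.84, 3.01 and 2.21 in KO at P0. KO P0 array 5 lay among the fetal values, and the other 8 newborns were higher than all fetuses. The rise was 0.88 ± 0.18 in WT and 0.66 ± 0.18 in KO (limma adjusted p = 0.006 and 0.02). Without WT P0 arrays 3 and 4 the WT difference of Sdhaf1 came to 0.70, which did not pass (adjusted p = 0.064).

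The 8 members of complex III had a median difference across birth of 0.11 in WT, with 0 calls by limma and 2 at an unadjusted p under 0.05, and of -0.12 in KO, with 1 call. The medians of all 90 members were 0.04 and -0.12. Uqcr11, a small subunit, stood at 6.76, 6.64 and 6.73 in KO at E19.5 and at 5.97, 6.40, 6.05, 6.42 and 6.02 at P0. The groups did not overlap, and the fall was 0.54 ± 0.16 (adjusted p = 0.03). Its second probe gave -0.53. The Rieske iron-sulfur protein Uqcrfs1 differed by 0.29 ± 0.11 in WT and 0.22 ± 0.11 in KO, and the core proteins Uqcrc1 and Uqcrc2 by 0.19 and 0.18 in WT and by -0.16 and -0.01 in KO, none of which passed.

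In complex IV, 1 of 11 ubiquitous subunits passed in WT and 2 in KO, all lower, with a median difference of -0.08 in WT and -0.16 in KO. Of all genes 10.6% fell in WT and 11.4% in KO. Of the 6 isoforms 2 passed in WT and 1 in KO, all lower, with medians of -0.10 and -0.21 and values on both sides of 0. Cox4i1, the housekeeping form of subunit 4, differed by -0.06 ± 0.10 and -0.08 ± 0.10, Cox5a by 0.24 ± 0.12 and 0.07 ± 0.12, Cox5b by 0.02 ± 0.11 and -0.07 ± 0.10, and Cox8a by -0.11 ± 0.10 and -0.16 ± 0.09. None of these passed. The Cox5b probe used lies at chr15:100805467-100805526 (mm9) and was not matched to a RefSeq gene. The second probe of Cox5b gave 0.08 in WT and 0.01 in KO. Ndufa4, first described in complex I and now assigned to complex IV, differed by 0.07 ± 0.17 and 0.00 ± 0.16. Cox6a1 passed narrowly in WT, falling by 0.30 (limma adjusted p = 0.05), but its sign turned under quantile scaling (0.03) and in the authors' deposited table (0.01). Cox7a2, the liver form of subunit 7a, fell by 0.30 in KO (adjusted p = 0.037) and differed by -0.26 ± 0.10 in WT (adjusted p = 0.08).

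Cox7a1 is the form of subunit 7a known from heart, skeletal muscle and brown fat, and was above background on all 15 arrays. Its levels were 2.57, 2.51 and 2.65 in WT and 2.44, 2.30 and 1.85 in KO at E19.5. At P0 they were 1.86, 1.34, 1.28 and 1.29 in WT and 0.53, 0.93, 0.63, 1.37 and 0.59 in KO. Fetal and newborn groups of each genotype did not overlap. The fall was 1.13 in WT and 1.38 in KO (limma adjusted p = 0.0029 and 0.00052), and the KO call held under all 24 alternatives. WT P0 array 4 had the highest skeletal muscle median of all arrays and a Cox7a1 level of 1.29. The summed level of the 5 cardiac muscle markers ran from 2.68 to 3.01 (log2) over the fetal and from 1.87 to 2.80 over the newborn arrays. Their medians overlapped more, from -3.70 to -2.93 over the fetal and from -3.61 to -2.70 over the newborn arrays. Of 4 brown fat markers, Ucp1 and Elovl3 were not above background on any array, and the summed level of the other pair, Cidea and Fabp3, ran from -0.31 to 0.49 over the fetal and from 0.28 to 3.88 over the newborn arrays, with 2.57 to 3.88 in KO newborns. The medians of Cidea and Fabp3 ran from -1.48 to -0.81 over the fetal and from -0.94 to 0.97 over the newborn arrays. In KO newborns these medians were 0.27 to 0.88, and WT P0 array 2 had the highest. The part of these tissues in the Cox7a1 levels was not tested.

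Ndufa4l2, a paralog of Ndufa4 known to be induced by low oxygen, stood at 4.37, 3.46 and 4.31 in WT and 4.07, 4.13 and 3.34 in KO at E19.5. At P0 it spread widely, with 2.44, 2.88, 1.00 and 0.72 in WT and 2.29, 2.85, 1.55, 3.41 and 1.79 in KO. The fall was 2.29 in WT (SE 0.54, limma adjusted p = 0.011), without overlap. In KO the difference was -1.47 ± 0.51, and KO P0 array 4 overlapped the fetuses (adjusted p = 0.059). The lowest values, 1.00 and 0.72, were those of WT P0 arrays 3 and 4, which also held pancreas transcripts and the lowest erythroid medians, and without these arrays the WT difference was -1.39 and did not pass (adjusted p = 0.1).

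Cox8b and Cox6a2 are the heart and skeletal muscle forms of subunits 8 and 6a. Cox8b was above background on 6 arrays alone, and its levels were highest on WT P0 array 4 (-2.55), KO P0 array 5 (-3.81), WT P0 arrays 2 and 1 (-3.83 and -3.94) and WT E19.5 array 1 (-4.21). These are the 5 arrays with raised skeletal muscle markers, and elsewhere the level was -7.00 to -4.90. Cox6a2 was also highest on WT P0 array 4 (0.05), WT P0 array 1 (-0.41), KO P0 array 5 (-0.62) and WT E19.5 array 1 (-0.79). Neither gene passed in any comparison, and the part of muscle RNA in these levels was not tested. Cox4i2, the lung and hypoxia form of subunit 4, and Cox6b2, known from testis, differed across birth by -0.16 ± 0.20 and -0.03 ± 0.15 in WT and by -0.26 ± 0.19 and -0.16 ± 0.14 in KO.

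Complex V couples the proton gradient to ATP through the F1 head and the membrane part Fo. Its F1 subunits Atp5a1 and Atp5b stayed near 0 across birth: Atp5a1 differed by 0.09 ± 0.10 in WT and -0.05 ± 0.10 in KO, and Atp5b by -0.07 ± 0.08 and 0.00 ± 0.08. Atp5e, the epsilon subunit of the F1 stalk, fell. Its levels were 6.94, 6.98 and 7.03 in WT and 7.10, 6.93 and 6.89 in KO fetuses, and 6.53, 6.10, 6.64 and 6.75 in WT and 6.25, 6.54, 6.41, 6.68 and 6.55 in KO newborns. No newborn reached a fetal value, and the fall was 0.48 in WT and 0.49 in KO (limma adjusted p = 0.033 and 0.025). Atp5j2, subunit f of Fo, fell by 0.42 and 0.36 (adjusted p = 0.011 and 0.018), and its second probe gave -0.31 and -0.39. The 3 genes for subunit c, Atp5g1, Atp5g2 and Atp5g3, whose mature proteins are the same, differed by 0.03, -0.02 and 0.31 in WT and by -0.35, -0.13 and 0.16 in KO, and none passed. The second probe of Atp5g1 gave 0.08 in WT and 0.24 in KO.

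Atp5s, now named Dmac2l and known as coupling factor B, rose. Its levels were -1.87, -1.74 and -1.83 in WT and -1.75, -1.71 and -1.81 in KO at E19.5, and -1.07, -1.13 and -1.53 on WT P0 arrays 1 to 3, with array 4 a little above them, and -1.11, -0.87, -0.84, -0.92 and -0.58 in KO at P0. All 9 newborns were above all 6 fetuses. The rise was 0.63 ± 0.14 in WT and 0.90 ± 0.13 in KO (limma adjusted p = 0.0069 and 0.00053). Atp5s was also the sole member that passed in both genotypes within slide 2, by 0.68 and 0.78 (adjusted p = 0.04 and 0.031). Atp5sl was counted with complex V by its array name, though its current symbol Dmac2 is that of a complex I assembly protein. Atp5sl rose in WT by 0.46 ± 0.12 (adjusted p = 0.019) and differed by 0.32 ± 0.12 in KO (adjusted p = 0.07). With array brightness as a covariate its WT difference was -0.06.

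Slide and brightness bore on the birth results. Slide 2 was the one that held all 4 groups, with 2 arrays of each. Within it 1 member passed across birth in WT (Atp5s) and 4 in KO (Atp5s, Ndufaf4, Sdhaf1 and Cox7a1), where 5.16% and 4.85% of all genes passed. In WT the differences within slide 2 were 0.72 for Sdhaf1, 0.40 for Ndufa10, -0.98 for Cox7a1, -0.69 for Atp5e and -0.54 for Atp5j2, each with the sign of the full set. With array brightness as a covariate 0 members passed in WT by limma, with 7 at an unadjusted p under 0.05, and 0 of all 22620 genes passed there. In KO 11 members passed, where 10.5% of all genes did. Among the 74 members other than isoforms, assembly factors and associated proteins, the change across birth was lower for genes with brighter probes (Pearson r = -0.45 in WT and -0.25 in KO; points share arrays). Core subunits of complex I had a median mean log2 signal of 14.0 and accessory ones of 14.5. The brightness ranges of the ages do not overlap, so age and array brightness cannot be told apart.

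**Figure D3:**
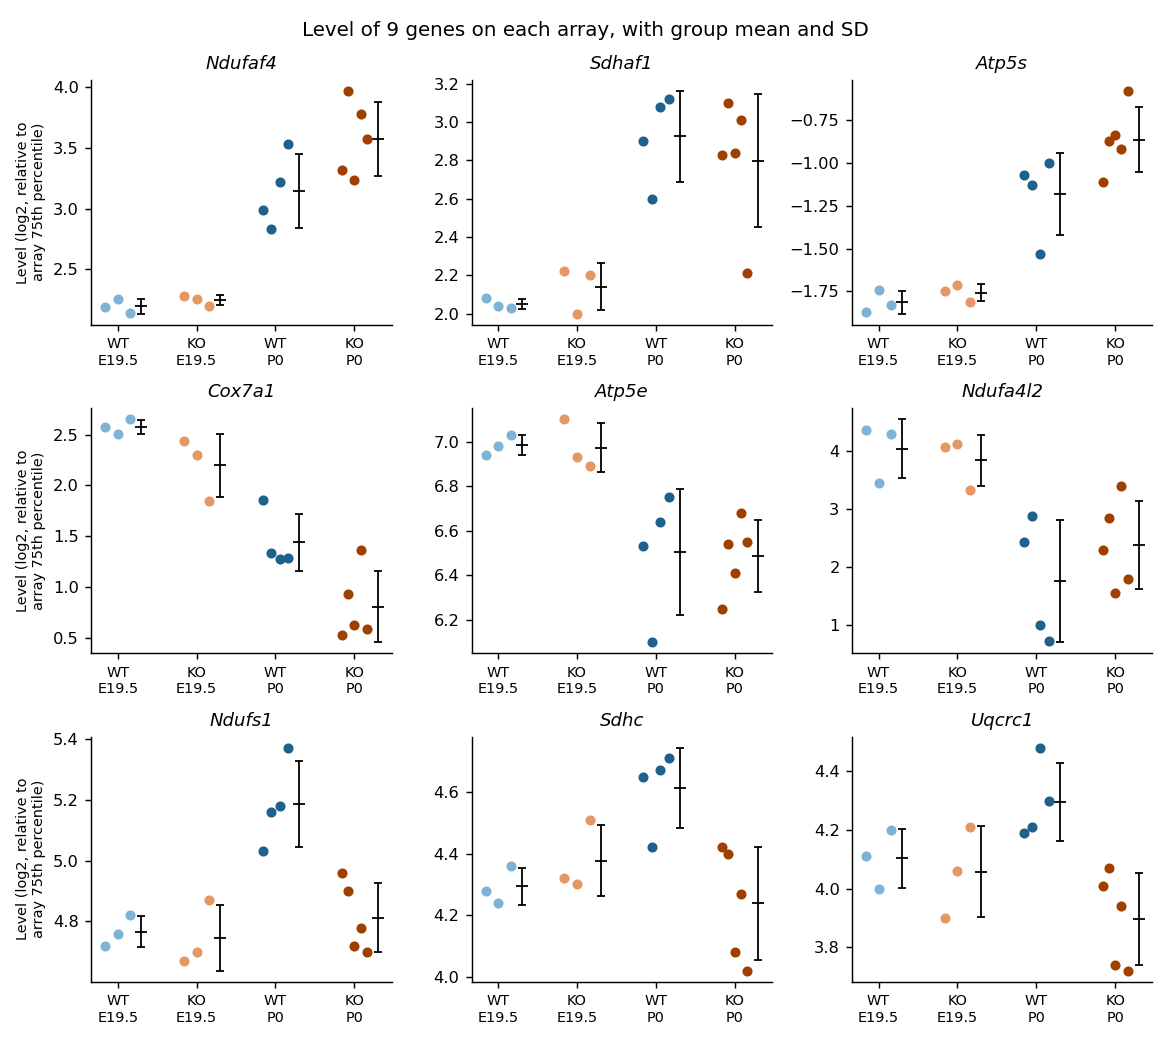
Level (log2 relative to the 75th percentile of the array) of 9 genes on each of the 15 arrays by group, with the group mean and SD beside the points. The genes of the top row rose at birth in both genotypes, those of the middle row fell (Ndufa4l2 in WT, with an adjusted p of 0.059 in KO by limma), and the genes of the bottom row were lower in KO than in WT newborns without overlap.

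At E19.5 the genotypes were close. By limma 0 of 90 members passed, where 0.0354% of all tested genes did (0.0133% higher and 0.0221% lower), and 0 members had an unadjusted p under 0.05, where 2.76% of all genes did. The member median was -0.01, beside 0.02 for all genes. The 75th percentiles of the genotypes did not overlap at E19.5, with 8.44 to 8.57 in WT and 8.81 to 9.05 in KO. With array brightness as a covariate the member median was -0.21, beside 0.07 for all genes. Genotype and array brightness thus cannot be told apart at E19.5. The WT and KO arrays did not overlap for 2 members, where 12.2% of all genes did not. Medians by complex were 0.00 for complex I, 0.04 for complex II, -0.05 for complex III, -0.06 for complex IV and -0.01 for complex V. The extremes were Ndufs8, a core subunit of complex I, at 0.22 ± 0.25, and Cox8b at -0.98 ± 0.96. Leaving out the 6 isoforms of complex IV, every difference lay between -0.12 (Ndufa5) and 0.22 (Ndufs8). Cox8b was well above background on none of the 3 KO arrays and on 1 of the 3 WT arrays, and the levels of the groups overlapped, so no fold is given.

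At P0 Ndufs1 of complex I, Sdhc of complex II and Uqcrc1 of complex III were lower in KO. These 3 of 90 members were called lower and 0 higher by limma, where 4.73% of all tested genes were called lower, 2.30% higher and 7.03% in either direction. The member median was -0.14, beside 0.02 for all genes, and 78 of 90 differences were below 0. At an unadjusted p under 0.05 stood 19 members, 17 of them lower, where 24.3% of all genes did. WT and KO arrays did not overlap for 7 members, where 9.10% of all genes did not. Core subunits of complex I had a median of -0.28 with 7 of 7 below 0, accessory ones -0.13 with 28 of 29 below 0, complex II -0.18, complex III -0.19 with 8 of 8 below 0, complex IV -0.13 and complex V -0.08.

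Ndufs1 stood at 5.03, 5.16, 5.18 and 5.37 in WT newborns and at 4.96, 4.90, 4.72, 4.78 and 4.70 in KO newborns, a difference of -0.37 ± 0.09 (limma adjusted p = 0.028). Its probe lies at chr1:63190360-63190419 (mm9). Sdhc, a membrane anchor that holds the ubiquinone site of complex II, stood at 4.65, 4.42, 4.67 and 4.71 in WT and at 4.42, 4.40, 4.08, 4.27 and 4.02 in KO. WT array 2 and KO array 1 nearly touched, and the difference was -0.38 ± 0.10 (adjusted p = 0.045). Its second probe gave -0.20. Uqcrc1, a core protein of complex III, stood at 4.19, 4.21, 4.48 and 4.30 in WT and at 4.01, 4.07, 3.74, 3.94 and 3.72 in KO, without overlap, a difference of -0.40 ± 0.10 (adjusted p = 0.037). In each of the 3 genes the lowest values were KO arrays 3 and 5, on slide 3.

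Among the other named subunits, Ndufs7 differed by -0.29 ± 0.12, Ndufv1 by -0.16 ± 0.08, Sdha by -0.23 ± 0.10, Sdhd by -0.23 ± 0.12, Uqcrc2 by -0.21 ± 0.08, Cox5a by -0.19 ± 0.11, Atp5a1 by -0.20 ± 0.09 and Atp5g1 by -0.39 ± 0.14, with limma adjusted p from 0.093 to 0.31. The second probe of Atp5g1 gave 0.20. Cox4i1, Cox5b and Atp5b differed by -0.09, -0.13 and -0.02. The second probe of Cox5b gave -0.11. Above 0 were Ndufaf4 at 0.43 ± 0.16 and Atp5s at 0.32 ± 0.12 (adjusted p = 0.11 and 0.12). Cox7a1 differed by -0.63 ± 0.19, and its groups overlapped through KO array 4 (adjusted p = 0.058). Ndufa4l2 differed by 0.62 ± 0.47.

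The shift at P0 lay in part of the arrays. WT arrays 3 and 4 stood above the rest: the median deviation of the 90 members from their means over all arrays was 0.07 and 0.29 there, -0.04 and -0.06 on WT arrays 1 and 2, and -0.12 to 0.03 on the 5 KO arrays. On WT array 4 complex II stood at 0.46, complex III at 0.38, complexes I and V at 0.28 and 0.29 and complex IV at 0.18. These are the arrays with pancreas transcripts, the lowest erythroid medians and the brightest signal (75th percentiles of 9.55 and 9.61). Without them the member median was 0.00, 44 of 90 differences were below 0, and 0 members passed by limma, with 7 at an unadjusted p under 0.05, where 0.769% of all genes passed.

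**Figure D4:**
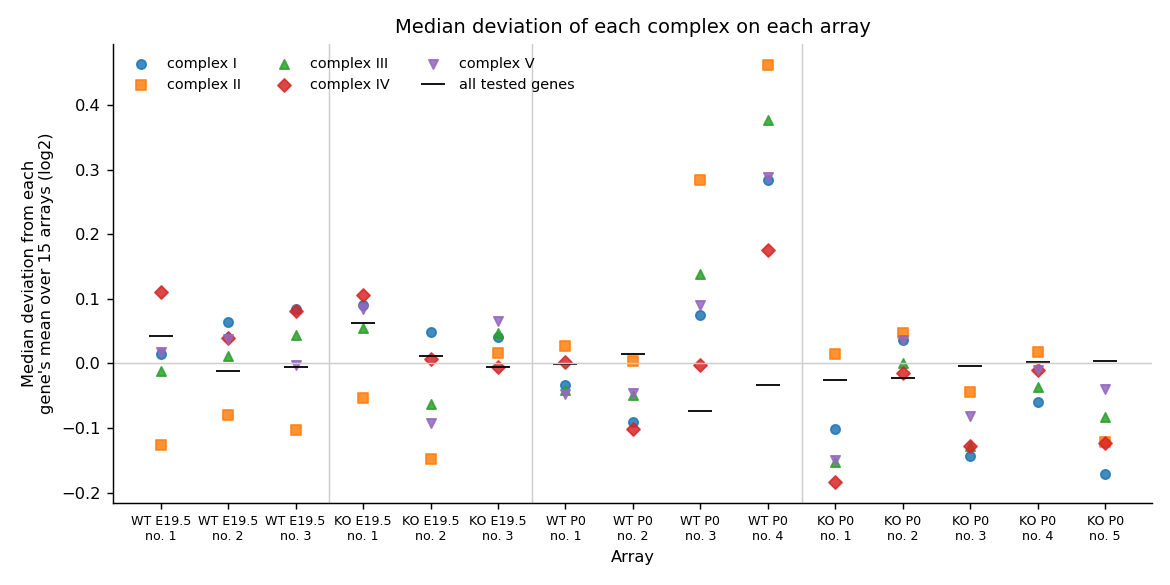
Median deviation (log2) of each complex from each gene's mean over 15 arrays, array by array, with all tested genes as a black dash. WT P0 arrays 3 and 4 stand highest for complexes II and III, while the KO P0 arrays lie near or below 0.

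WT arrays 1 and 2 and KO arrays 1 and 2 lay on slide 2, and WT arrays 3 and 4 and KO arrays 3 to 5 on slide 3. Within slide 2 the member median of KO minus WT was 0.02, with 36 of 90 below 0. Within slide 3 it was -0.29, with 80 of 90 below 0, and 79 of 90 members were lower in slide 3 than in slide 2. By limma 0 members passed in either slide, with 4 and 30 at an unadjusted p under 0.05, where 0.00884% of all genes passed within slide 2 and 3.81% within slide 3. The differences of the called genes in slides 2 and 3 were -0.17 and -0.54 for Ndufs1, -0.13 and -0.57 for Sdhc, and -0.16 and -0.59 for Uqcrc1. They kept their sign in both slides, while Atp5g1 gave 0.01 and -0.74. Ndufaf4 was higher in KO in both, by 0.74 and 0.15. With the replicate number as a block, 0 of the 3 calls held (limma adjusted p = 0.096 for Ndufs1, 0.14 for Sdhc and 0.12 for Uqcrc1), and the differences were -0.35, -0.32 and -0.35. With slide as a block the calls of Ndufs1 and Uqcrc1 held and that of Sdhc was lost, where 8.67% of all genes passed. Same-numbered P0 animals share a slide, so the replicate block cannot tell a pairing from the slide. All 3 calls were also lost without WT array 3 or 4 and without KO array 3, 4 or 5, each left out alone. Of 26 alternatives, the call was lost under 14 for Ndufs1, 17 for Sdhc and 14 for Uqcrc1. The limma adjusted p over all alternatives ran from 0.017 to 0.59 for Ndufs1, from 0.023 to 0.71 for Sdhc and from 0.025 to 0.61 for Uqcrc1.

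**Figure D5:**
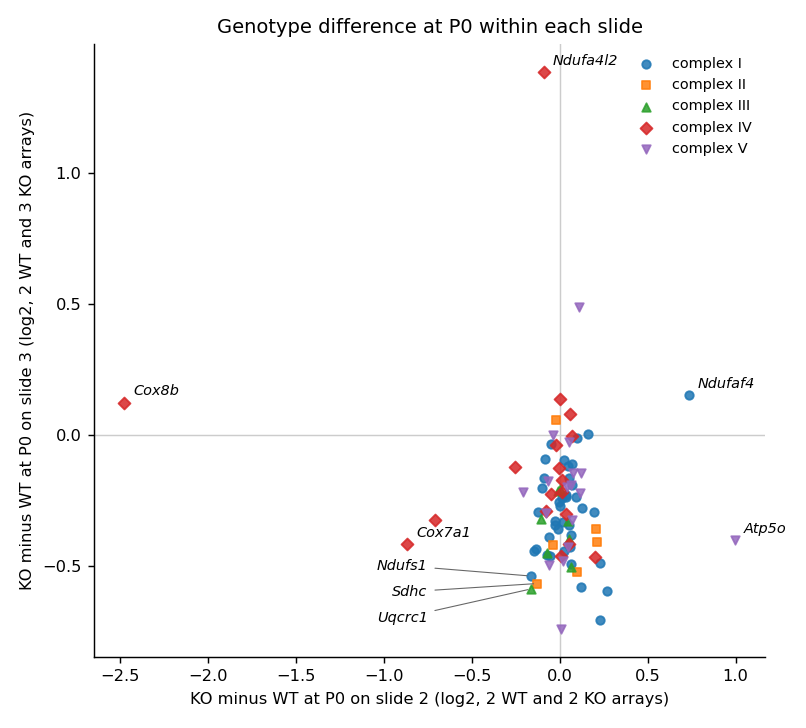
KO minus WT at P0 (log2) within slide 2 on the x axis and within slide 3 on the y axis for members of the 5 complexes, 1 marker per gene and 1 shape per complex. Along the x axis most genes lie close to 0, and along the y axis most lie below 0, with Ndufs1, Sdhc and Uqcrc1 below 0 on both.

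The change of the genotype difference from E19.5 to P0 was tested directly. By limma 0 of 90 members passed, as did 0 of 22620 genes, and 3 members had an unadjusted p under 0.05, where 9.37% of all genes did: Sdhc at -0.46 ± 0.16, Atp5d, the delta subunit of F1, at -0.38 ± 0.17, and Ndufs1 at -0.35 ± 0.14 (adjusted p = 0.41, 0.52 and 0.48). So the P0 differences were not shown to differ from those at E19.5. The member median was -0.13, and 0.00 without WT P0 arrays 3 and 4.

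Other genes of mitochondrial energy metabolism, on lists chosen by function, stood beside the 14 of 90 members that passed in WT, where 8.36% of all genes rose and 10.6% fell. There 9 of 17 citric acid cycle genes rose and 0 fell by limma (median 0.34), among them Idh3a (1.08) and Fh1 (0.96). Of 21 mitochondrial carriers and import factors 12 rose (median 0.45), led by Slc25a20, the carnitine carrier (1.48), and Slc25a10, the dicarboxylate carrier (1.23). Electron carriers and subunits outside the name rule had 5 of 10 higher and 1 lower, among them Etfdh, which passes electrons from fat oxidation to ubiquinone (1.03), and cytochrome c, Cycs (0.59). Of 16 fatty acid oxidation genes 6 rose, led by Cpt1a (1.68), and of 14 glycolysis genes 5 fell, led by Pfkl (-0.96). Of assembly factors outside the name rule, 3 of 7 for complex I rose, among them Foxred1 (0.57) and Tmem126a (0.49), 1 of 4 for complex III, Ttc19 (0.56), 2 of 12 for complex IV, Sco1 and Sco2 (0.74 and 0.52), and 0 of 2 for complex V, so most did not pass. Of 13 mitochondrially encoded transcripts 6 fell and 1 rose, the largest being ND6 (-1.64) and ND1 (1.30). Without WT P0 arrays 3 and 4 the WT counts of rises dropped to 3 of 17 in the citric acid cycle (median 0.30), 5 of 21 for carriers and import (0.31), 2 of 10 for electron carriers and 4 of 16 for fatty acid oxidation, and 3 of 14 glycolysis genes fell. In that fit 10.1% of all genes passed in either direction. Within slide 2 the rises were 1 in the citric acid cycle, 3 for carriers and import, 0 for electron carriers and 2 for fatty acid oxidation. There 5.16% of all genes passed in either direction.

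In KO livers 6 of 17 citric acid cycle genes rose across birth and 1 fell, where 8.57% of all genes rose and 11.4% fell. Of 21 carriers and import factors 8 rose, and of 10 electron carriers and subunits outside the name rule 2 rose. Fatty acid oxidation had 4 higher and 6 lower of 16, glycolysis 6 lower of 14, and mitochondrially encoded transcripts 1 higher of 13. At P0, 9 of 16 fatty acid oxidation genes were lower in KO (median -0.59), where 4.73% of all genes were, led by Hadh (-0.90) and Acads (-0.84). In the citric acid cycle 2 of 17 were lower, Suclg2 (-0.63) and Idh3b (-0.37), and 1 electron carrier gene, Coq9, was lower (-0.43). Of 20 regulators of mitochondrial biogenesis 3 were higher in KO newborns, where 2.30% of all genes were, led by Esrrg (2.52) and Ppargc1a (0.93), and 0 lower. Most of these calls were lost without WT P0 arrays 3 and 4, which hold the pancreas transcripts and are the brightest. By limma 0 of 16 fatty acid oxidation genes then passed, with a median of -0.34 and 9 at an unadjusted p under 0.05, 0 of 17 citric acid cycle genes (4 at an unadjusted p under 0.05), 0 of 10 electron carriers (1), and 1 of 20 regulators. In that fit 0.769% of all genes passed. Within slide 2, where 0.00884% of all genes passed, 0 genes on these 4 lists passed, with 5, 2, 0 and 4 at an unadjusted p under 0.05, and the fatty acid oxidation median was -0.23.

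The spread of members between animals of a group was small. Their median pooled SD was 0.14, against 0.24 for all tested genes, and it was 0.13 for the accessory subunits of complex I and 0.39 for the isoforms of complex IV. The members' probes were also brighter, with a median mean log2 signal of 14.57 against 8.57 for all tested genes and 9.42 for those isoforms. The part of brightness in the spread was not tested. The probe of Atp5o, the stalk subunit that confers oligomycin sensitivity, was an exception. It read 2.16, 2.17 and 2.16 on WT E19.5 array 1, KO E19.5 array 2 and WT P0 array 2, and 4.20 to 5.22 on the other 12 arrays, with a pooled SD of 1.06. The low and high readings were found in both ages and both genotypes, and no difference of Atp5o passed. For 30 members the array held further probes, 43 in all, and their differences had the sign of the chosen probe for 29 at E19.5, 32 at P0, 31 across birth in WT and 25 across birth in KO, with median gaps of 0.05, 0.05, 0.10 and 0.10.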

How the data were processed

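Liver RNA of 15 animals was measured on 1 single-colour array each. The authors' deposited spot intensities came from Agilent Feature Extraction 10.10, per the file headers, which corrected the background within each array (gProcessedSignal, mouse build mm9). The deposited log2 value table was made with limma, per the submitters' processing notes, and was used as an alternative; its columns share a median, and no source used here states its background correction or scaling.

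Control spots and outlier spots were left out, spots of a probe were averaged, and log2 intensity minus the 75th percentile of the array was used. Probes marked as well above background on 3 or more arrays within some group were kept (34386 of 55681), and the brightest kept probe stood for a gene. limma 3.58.1 (R 4.3.3) fitted 4 group means over all 15 arrays, with Benjamini-Hochberg adjustment over 22620 genes. Figures used matplotlib 3.10.9. On simulated data for KO minus WT at P0 (22620 genes), 22% of changes of 0.5 and 75% of changes of 1 on the log2 scale were recovered, with 8 false calls. The simulation drew noise independently for each gene and array, without slide, brightness or tissue effects. Its false calls therefore do not measure those on the real arrays. Saturated spots were absent from all arrays. Precision is limited by how many arrays there are.

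The members and all gene lists were chosen with earlier results of these data known. Members named were the 6 largest rises and falls past the threshold per comparison, fixed examples per complex and all tissue or condition isoforms, and from other lists the 2 largest per comparison. The extreme member of a set was named where given as such, and Ndufv3, Ndufaf1, Ndufaf2, Sdhaf2, Atp5d, Atp5o, Tmem126a and Sco2 were named after their values were seen. Of the members, 88 matched a RefSeq gene.

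Replicate numbers recur in WT and KO. The deviations of same-numbered P0 animals correlated at 0.14, 0.20, 0.13 and 0.27, and the replicate block was run as an alternative. These animals also share a slide, and animals with different numbers were not compared, so a pairing was not shown. At E19.5 the correlations were 0.21, 0.01 and 0.14, and a pairing was not shown there either. Alternatives covered scaling, background correction, the filter, the probe rule, slide, brightness, the replicate block, the arrays fitted and each array left out.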

Additional observations from a re-analysis of the deposited data

Results flagged for a closer look

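In 5 of 78 groups of arrays tested over 39 named members, 1 array lay far from the others by Dixon's criterion, which chance meets in about 1 in 20 groups. Cox7a1 stood at 1.86 on WT P0 array 1 and at 1.28 to 1.34 on the other 3. Cox6a1 stood at 8.76 on KO P0 array 2 and at 8.49 to 8.55 on the others. On KO P0 array 4, Ndufa4 stood at 4.84 against 5.03 to 5.09 and Cox4i2 at -0.82 against -1.15 to -1.07. Ndufs7 stood at 5.30 on KO P0 array 5 and at 5.79 to 5.97 on the others.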

How the results depend on the processing

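The 0 calls at E19.5 and for the change of the genotype difference held under every alternative run. For KO minus WT at P0, the 3 calls became 0 under median scaling, with no filter on dim probes, within slide 2, within slide 3, with brightness as a covariate, with the replicate block, with only the 2 groups compared, and without the 2 WT arrays with pancreas transcripts. They became 5 with normexp and the 75th percentile, 8 with normexp and quantile scaling, 6 in the authors' table and 1 when the 5 arrays holding muscle or adrenal RNA were dropped. Of all genes, 9.49% passed with normexp and the 75th percentile, 9.12% with normexp and quantile scaling and 8.18% in the authors' table. Under median scaling 2.72% did, with no filter 2.46%, with the replicate block 3.38%, with only the 2 groups 1.25% and with brightness 0.0133%. Leaving out 1 array gave 0 to 6 member calls. Across birth in WT, the 14 calls became 8 under median scaling, 24 with normexp and the 75th percentile, 7 with slide as a block, 1 within slide 2, 0 with brightness, 6 with only the 2 groups, and 9 without the pancreas arrays and 9 without the muscle arrays. Dropping the muscle or adrenal arrays left WT P0 array 3, itself a pancreas array, as the sole WT newborn, so those 2 counts assume that it varies like the other groups. Of all genes, 13.9% passed under median scaling, 44.9% with normexp and the 75th percentile, 11.7% with slide as a block and 11.3% with only the 2 groups. Leaving out 1 array gave 8 to 16 member calls. The fewest, 8, came without WT E19.5 array 1 or 2, where 12.2% of all genes passed in either fit. Across birth in KO, the 17 calls became 4 under median scaling, 10 with no filter, 8 with a slide block, 11 with brightness and 4 within slide 2. Leaving out 1 array gave 6 to 17, with 6, 7 and 8 without KO E19.5 arrays 1, 2 and 3, and 11 without KO P0 array 3. With the replicate block 11 members passed in WT and 12 in KO across birth, where 17.1% and 13.9% of all genes did. Beside the P0 calls this block ended those of Cox6a1 in WT and of Ndufa10 and Ndufaf3 in KO among the members named by size.

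Splits of higher and lower calls across birth that moved by over 10 percentage points were, in WT, 9 and 6 under quantile scaling, 7 and 10 with the percentile over probes detected on every array, 10 and 6 with normexp and quantile scaling and 11 and 5 in the authors' table. Signs turned for Cox6a1 in WT (0.034 under quantile scaling, 0.014 with normexp and quantile scaling, 0.006 in the authors' table, 0.267 with brightness) and for Atp5sl in WT (-0.058 with brightness). The cause was not tested. The median of all genes moved by over 0.1 as follows: across birth in WT to -0.16 after normexp with percentile scaling and to -0.12 with no filter, and for the change of the genotype difference to 0.12 after normexp with percentile scaling and to -0.12 with brightness. No fit was possible within slide 1, which holds 1 array of each genotype. Depth on arrays bears on Cox8b, which was above background on 6 of 15 arrays; the other 89 members were measured on all.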
